A study of Mus musculus with 6 samples.

Results

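The 36 genes described here encode the enzymes that carry glucose to lactate, the enzymes of glycogen synthesis and breakdown, and the membrane carriers of glucose and lactate. They were taken by symbol from a table of 21959 genes, and the list was chosen with earlier results of these data known. All 36 symbols were present, in 37 rows, because aldolase A (Aldoa) also had a second row under another identifier with 107 counts in all, which is left out below. The table covers 6 RNA-seq libraries of a mouse line labelled HL-1, a line derived from atrial heart muscle cells, of wild-type genotype in the labels. In 3 libraries the cells had received 50 µg/mL phillyrin, a plant lignan glucoside, for 8 h before and 16 h during the insult, which is oxygen-glucose deprivation followed by reoxygenation (OGD/R). How these 16 h fall within OGD/R is not stated. In the other 3 libraries the cells went through OGD/R alone. Both groups thus share the 4 h of hypoxia without glucose, the 24 h of reoxygenation in complete medium, the culture medium with norepinephrine and the batch label. No untreated and no vehicle-treated cells were analysed here, so an effect of phillyrin cannot be told apart from that of its solvent, and a level in OGD/R cannot be read as a response to OGD/R.

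In glycolysis, glucose is taken up through carriers of the GLUT family, trapped by phosphorylation by hexokinase, committed by phosphofructokinase, split by aldolase and oxidised to pyruvate in the steps that yield ATP. Lactate dehydrogenase turns pyruvate into lactate, which leaves the cell through monocarboxylate carriers. When oxygen is short this route is the main source of ATP, and many of its genes are known targets of the hypoxia-inducible factor HIF-1, which binds short motifs known as hypoxia response elements. Muscle cells also keep glycogen, built by glycogen synthase and branching enzyme and broken down by glycogen phosphorylase. Several steps have a form typical of muscle (Slc2a4, Pfkm, Pgam2, Eno3, Gys1, Pygm) beside forms found in many tissues, and the shift between such forms is a known mark of muscle differentiation.

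The bases upstream of the annotated start are shown for the 4 members with the smallest adjusted p-values, all of them lower with phillyrin, because they let a reader see where the HIF motif core lies in genes that fell together. The sequences are from RefSeq, build GRCm38.p6, 250 bases each, 5′ to 3′ on the strand of the gene, ending at the base before the start. Capitals mark each match to the motif core ACGTG or GCGTG on either strand.
Eno3, chr11:70656926-70657175, plus strand: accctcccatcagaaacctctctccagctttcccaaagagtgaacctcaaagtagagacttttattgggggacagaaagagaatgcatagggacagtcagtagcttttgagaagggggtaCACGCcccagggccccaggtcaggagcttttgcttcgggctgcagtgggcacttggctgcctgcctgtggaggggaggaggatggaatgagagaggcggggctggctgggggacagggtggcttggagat
Hk1, chr10:62379909-62380158, minus strand: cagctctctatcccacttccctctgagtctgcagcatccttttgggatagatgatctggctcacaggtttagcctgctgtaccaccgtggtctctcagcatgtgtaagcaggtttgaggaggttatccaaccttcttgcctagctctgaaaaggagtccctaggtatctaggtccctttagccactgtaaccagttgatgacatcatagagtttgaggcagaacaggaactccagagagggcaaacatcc
Ldha, chr7:46845554-46845803, plus strand: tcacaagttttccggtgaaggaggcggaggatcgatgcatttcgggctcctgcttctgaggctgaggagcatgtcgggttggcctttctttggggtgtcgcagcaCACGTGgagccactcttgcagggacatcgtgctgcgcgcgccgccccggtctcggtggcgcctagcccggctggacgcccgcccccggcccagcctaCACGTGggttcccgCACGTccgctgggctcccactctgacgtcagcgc
Pgk1, chrX:106186850-106187099, plus strand: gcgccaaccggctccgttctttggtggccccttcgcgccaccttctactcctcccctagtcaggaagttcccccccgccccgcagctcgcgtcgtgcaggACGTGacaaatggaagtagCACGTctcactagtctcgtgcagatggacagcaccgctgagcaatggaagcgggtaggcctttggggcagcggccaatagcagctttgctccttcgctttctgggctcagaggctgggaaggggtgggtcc
The window of Ldha held the core at 3 places, of which 2 are the palindrome CACGTG that matches on both strands. Pgk1 held it at 2 places, 150 and 131 bases upstream of the start, and Eno3 at 1 place, 130 bases upstream. The Hk1 window held none. Hk1 and Ldha each have another window in the RefSeq table, and which start these cells used was not measured. Over the 30 members for which 1 window could be chosen, 22 windows (73.3%) held the core, against 38.6% of all 32851 RefSeq windows of that length. Among the members that fell 8 of 13 windows (61.5%) held it, and among the others 14 of 17 (82.4%). For Tpi1, Pgam1 and Pygb, which fell, and for Pgam2, the only window had 0 coding transcript starts within 50 bases. The E-box CACGTG, which contains the core ACGTG, was in 4 of the 30 windows and in 6.02% of all windows. The muscle E-box CAGCTG was in 6 of the 30 and in 13% of all, and the GC box GGGCGG in 16 of the 30 and in 32.7% of all. These counts describe letters in a window and not binding.

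Of the 36 genes, 33 had enough counts to be tested. With phillyrin 15 of these fell and 1 rose (edgeR quasi-likelihood test, adjusted p under 0.05 over all 11658 genes tested). These 16 are 48.5% of the tested members, against 31.7% of all genes tested. Among the 33 members 45.5% fell and 3.03% rose, against 15.6% and 16% of all genes. The median log2 fold change (phillyrin minus OGD/R) was -0.14 over the members and -0.01 over all genes. The log2 fold changes of the members that fell lay between -0.64 and -0.10, and 3 of them, Eno3, Hk1 and Ldha, passed a test against a fold of 1.2 (edgeR glmTreat, adjusted p = 2.29e-10, 3.96e-05 and 0.00419). The phillyrin libraries lay wholly below the OGD/R libraries for 18 of the 33 members, against 21.6% of all genes, and wholly above for 2, against 21.5%. All member rows together took 0.775%, 0.817% and 0.782% of the counts in the phillyrin libraries, against 0.947%, 0.936% and 0.934% in the OGD/R libraries.

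**Figure D1:**
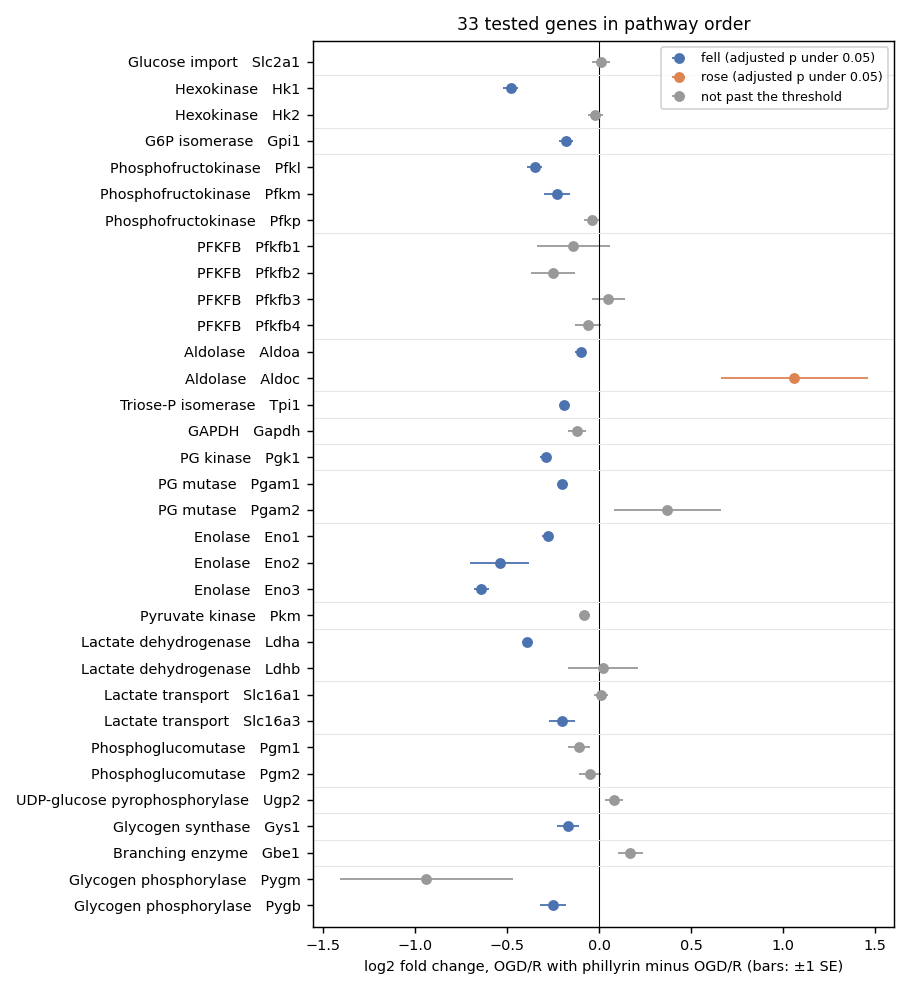
Log2 fold change of each of the 33 tested members (x axis, OGD/R with phillyrin minus OGD/R, bars 1 SE), in pathway order from the top. The 15 genes that fell lie between -0.64 (Eno3) and -0.10 (Aldoa), and the 1 that rose, Aldoc, has the widest bar among the called genes (SE 0.40).

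Library totals ranged from 14761317 to 22123648 counts, and any pair of libraries correlated at 0.988 or more in log2 CPM. The label was checked against marker lists. Of 10 atrial muscle markers, Myh6, Mybphl, Sln and Actn2 had 0 counts in all libraries. Nppa, Myl7, Actc1 and Tbx5 had 2, 1, 1 and 3 counts over all 6 libraries together and were not tested. The summed level of the list, almost all of it from Tnnt2 and Gata4, was 174 to 191 CPM with phillyrin and 147 CPM in OGD/R. Tnnt2, at 153 ± 9.34 CPM with phillyrin and 116 ± 1.79 CPM in OGD/R, rose, and Gata4, at 28.3 ± 1.01 CPM with phillyrin and 30.8 ± 2.21 CPM in OGD/R, was not called (SD, n = 3 each). Some myoblast markers were present and others nearly absent. Myod1 stood at 97.2 ± 4.09 CPM with phillyrin and 83.2 ± 2.18 CPM in OGD/R, and Cdh15 at 102 ± 4.84 CPM with phillyrin and 132 ± 4.23 CPM in OGD/R. Myog was at 0.441 ± 0.413 CPM with phillyrin and 0.351 ± 0.242 CPM in OGD/R (SD, n = 3 each). Myog, Myh3 and Tnnt1 had 45, 34 and 65 counts over all 6 libraries together. The 8 genes of that list summed to 1180 to 1240 CPM with phillyrin and 1250 to 1270 CPM in OGD/R. Of these, 1 was higher (Myod1) and 3 were lower (Myf5, Chrna1 and Cdh15). Much of the sum was Des, which was not called. Des stood at 695 ± 19.8 CPM with phillyrin and 676 ± 8.18 CPM in OGD/R (SD, n = 3 each). The 7 fibroblast genes summed to 1800 to 1950 CPM with phillyrin and 2280 to 2320 CPM in OGD/R, with 3 of them (Col1a2, Col3a1 and Pdgfra) lower and Lum at 0. Almost all of this sum came from the collagen genes Col3a1, Col1a2 and Col1a1. Thy1 had 2 counts over all 6 libraries. Dcn, at 5.26 ± 0.95 CPM with phillyrin and 4.74 ± 0.416 CPM in OGD/R (SD, n = 3 each), was not called. The part of these marker shifts in the results below was not tested. Endothelial and macrophage markers summed to at most 4.24 CPM in any library, with Kdr and Adgre1 at 0. The cells are referred to by their label. In bulk RNA, fewer cells of a type and less RNA per cell cannot be told apart.

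Levels below are FPKM, a count divided by the length of the gene and by the library size, which was scaled by the TMM factors. The gene lengths in the table exceed those of the mRNA for some members. Gapdh has a length of 4133 bases in the table and 1420 in its longest coding transcript, Eno1 5379 and 2027, and Pfkp 13401 and 4145. This lowers the FPKM of such genes alike in all libraries. It does not touch a comparison of 1 gene between groups. It does weight the genes of a step in a sum or share, so these, and levels of different genes, are given on both lengths where their order changes.

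Of the 3 glucose carriers among the members, Slc2a1 alone had enough counts to be tested, and no difference between groups was detected. Slc2a1, the widely expressed carrier GLUT1, stood at 27.2, 26.5 and 26.2 FPKM with phillyrin, against 26.2, 26.4 and 26.5 FPKM in OGD/R (edgeR log2 fold change 0.01 ± 0.05 SE, adjusted p = 0.839). The groups overlapped. Slc2a4, the insulin-responsive GLUT4 of muscle and fat, had 6 counts over all 6 libraries, and Slc2a3, the high-affinity GLUT3, had 11, so neither was tested. Slc2a4 had 2, 0 and 2 counts with phillyrin and 1, 1 and 0 in OGD/R. The muscle carrier was thus at or under the limit of 3 counts that a library with 0 counts allows, which is between 0.136 and 0.203 CPM.

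At the first enzyme step Hk1 fell and Hk2 was not called. Hk1, the form typical of brain and many other tissues (ENSMUSG00000037012, GRCm39 chromosome 10, 62104634 to 62215687), stood at 16.2, 16.3 and 17.8 FPKM with phillyrin, against 23.5, 23.6 and 23 FPKM in OGD/R. Every phillyrin library lay below every OGD/R library (edgeR log2 fold change -0.48 ± 0.04 SE, adjusted p = 9.12e-12). Hk2, the hexokinase of insulin-sensitive tissues, stood at 29.7, 28 and 29.2 FPKM with phillyrin, against 29.5, 29.6 and 28.7 FPKM in OGD/R, and its groups overlapped (edgeR log2 fold change -0.02 ± 0.04 SE, adjusted p = 0.791). Hk1 made up 36.7 ± 1.27% of the hexokinase FPKM with phillyrin and 44.4 ± 0.0681% in OGD/R (SD, n = 3 each). Computed on transcript lengths its share was 51.6 ± 1.37% with phillyrin and 59.5 ± 0.0665% in OGD/R, so that which hexokinase was the more abundant depends on the length used, while the lower Hk1 share with phillyrin does not.

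Glucose phosphate isomerase, Gpi1, stood at 52, 56.2 and 52.9 FPKM with phillyrin, against 63.2, 58.9 and 60.4 FPKM in OGD/R (edgeR log2 fold change -0.18 ± 0.04 SE, adjusted p = 0.000249). Its groups did not overlap. Of the phosphofructokinases, which catalyse the committed step, the liver form Pfkl was at 20.4, 20 and 20.2 FPKM with phillyrin, against 25.7, 25.5 and 26 FPKM in OGD/R (edgeR log2 fold change -0.35 ± 0.04 SE, adjusted p = 6.93e-09). The muscle form Pfkm was at 8.51, 9.75 and 9.41 FPKM with phillyrin, against 10.9, 11 and 10.7 FPKM in OGD/R (edgeR log2 fold change -0.23 ± 0.07 SE, adjusted p = 0.00991). For both forms the phillyrin libraries were the lower ones throughout, but Pfkm missed the threshold when phillyrin replicate 1 was left out (adjusted p = 0.0791 by edgeR). The platelet form Pfkp overlapped between groups at 10.1, 9.86 and 10.5 FPKM with phillyrin and 10.2, 10.7 and 10.4 FPKM in OGD/R (edgeR log2 fold change -0.04 ± 0.04 SE, adjusted p = 0.506). Pfkl was the most abundant form on either length. Pfkm and Pfkp stood close together on the lengths of the table, and Pfkp stood above Pfkm on transcript lengths, at 32.8 against 10.7 FPKM with phillyrin and 33.7 against 12.6 FPKM in OGD/R.

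The 4 Pfkfb genes encode enzymes that make and remove the sugar bisphosphate that activates phosphofructokinase. None of the 4 was called by edgeR, which called 31.7% of all genes tested, nor by DESeq2 or limma-voom. At an unadjusted p under 0.05 edgeR picked out 1 of them, Pfkfb2. Pfkfb4 was the most abundant, at 7.46, 8.05 and 6.95 FPKM with phillyrin, against 7.52, 7.6 and 8.39 FPKM in OGD/R, with overlapping groups. Pfkfb3 was at 2.40 ± 0.0817 FPKM with phillyrin and 2.33 ± 0.0218 FPKM in OGD/R (SD, n = 3 each, with an edgeR log2 fold change of 0.05 ± 0.09 SE). Pfkfb2, the heart form, was at 1.35 ± 0.152 FPKM with phillyrin and 1.62 ± 0.145 FPKM in OGD/R (SD, n = 3 each, with an edgeR log2 fold change of -0.25 ± 0.12 SE, adjusted p = 0.108), with the phillyrin libraries below the OGD/R ones. Pfkfb1 was at 0.881 ± 0.221 FPKM with phillyrin and 0.97 ± 0.139 FPKM in OGD/R (SD, n = 3 each).

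Aldolase, which splits the hexose bisphosphate, was almost entirely Aldoa, the form of muscle and most tissues. It stood at 164, 176 and 167 FPKM with phillyrin, against 185, 180 and 179 FPKM in OGD/R, the smallest of the called decreases (edgeR log2 fold change -0.10 ± 0.03 SE, adjusted p = 0.0194). The groups were separate but close, and leaving out phillyrin replicate 1, OGD/R replicate 1 or OGD/R replicate 2 ended the call (adjusted p = 0.107, 0.109 and 0.0621 by edgeR). Aldoc, the brain aldolase, was the member that rose, at a very low level of 19, 28 and 13 counts with phillyrin, against 8, 9 and 14 counts in OGD/R (edgeR log2 fold change 1.06 ± 0.40 SE, adjusted p = 0.0391). Its counts overlapped between groups, although its FPKM did not, at 0.341, 0.392 and 0.277 with phillyrin and 0.133, 0.133 and 0.226 in OGD/R. Leaving out phillyrin replicate 1 or 2, or OGD/R replicate 1 or 2, ended the call (adjusted p = 0.0723, 0.155, 0.134 and 0.143 by edgeR), as did DESeq2 (adjusted p = 0.125) and the lack of a low-count filter (adjusted p = 0.0651 by edgeR). Aldoc gave 0.199 ± 0.0292% of the aldolase FPKM with phillyrin and 0.0905 ± 0.0309% in OGD/R (SD, n = 3 each).

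Of the 11 members between triosephosphate isomerase and lactate dehydrogenase, 7 fell and 0 rose. That is 63.6% that fell, against 15.6% of all genes tested, of which 16% rose. Triosephosphate isomerase, Tpi1, stood at 206, 225 and 212 FPKM with phillyrin, against 245, 246 and 243 FPKM in OGD/R (edgeR log2 fold change -0.19 ± 0.03 SE, adjusted p = 3.7e-05). Pgk1, the first ATP-yielding enzyme (ENSMUSG00000062070, GRCm39 chromosome X, 105230706 to 105247305), stood at 455, 461 and 475 FPKM with phillyrin, against 565, 569 and 568 FPKM in OGD/R (edgeR log2 fold change -0.29 ± 0.03 SE, adjusted p = 3.17e-09). Pgam1, the phosphoglycerate mutase of most tissues, stood at 163, 168 and 165 FPKM with phillyrin, against 192, 187 and 192 FPKM in OGD/R (edgeR log2 fold change -0.20 ± 0.03 SE, adjusted p = 1.71e-05). The groups were apart for all 3 genes. Pgam2, the muscle mutase, was scarce and overlapped, at 2.48 ± 0.522 FPKM with phillyrin and 1.93 ± 0.843 FPKM in OGD/R (SD, n = 3 each, with an edgeR log2 fold change of 0.37 ± 0.29 SE, adjusted p = 0.362).

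Gapdh, the dehydrogenase often used as a housekeeping reference, and Pkm, pyruvate kinase, were the steps without a called gene. Gapdh stood at 23.3, 23.5 and 25 FPKM with phillyrin, against 25.7, 25.2 and 27.1 FPKM in OGD/R, so its groups did not overlap, yet it missed the threshold (edgeR log2 fold change -0.12 ± 0.05 SE, adjusted p = 0.0506). Leaving out phillyrin replicate 3 brought it under the threshold (adjusted p = 0.0191 by edgeR), as did unscaled library sizes (0.00672), a minimum mean of 1 CPM (0.0482) and limma-voom (0.0466). Its FPKM was far below that of Pgk1 at the next step. Of the 150-base windows of its longest coding transcript, 74% also occurred in transcripts of 51 other annotated genes, 46 of them pseudogenes, and how the counting treated reads that fit several places is not given in the sources used here. Pkm stood at 349, 373 and 351 FPKM with phillyrin, against 385, 377 and 373 FPKM in OGD/R (edgeR log2 fold change -0.08 ± 0.03 SE, adjusted p = 0.0628). Leaving out phillyrin replicate 2 brought it under the threshold (adjusted p = 0.0153 by edgeR), as did unscaled library sizes (0.00338) and limma-voom (0.0259). Counts per gene do not separate its muscle and fetal splice forms.

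All 3 enolases fell. Eno3, the beta enolase of muscle (ENSMUSG00000060600, GRCm39 chromosome 11, 70548028 to 70553339), stood at 114, 115 and 109 FPKM with phillyrin, against 170, 174 and 183 FPKM in OGD/R. The gap between the groups was wider than the spread inside either (edgeR log2 fold change -0.64 ± 0.04 SE, adjusted p = 7.46e-16). Eno1, the alpha form of most tissues (ENSMUSG00000063524, GRCm39 chromosome 4, 150321178 to 150333336), stood at 166, 182 and 175 FPKM with phillyrin, against 212, 212 and 208 FPKM in OGD/R (edgeR log2 fold change -0.28 ± 0.03 SE, adjusted p = 4.32e-08). Eno1 shares 49% of its 150-base windows, most of them with the retrocopy Eno1b, which also fell, at 108, 114 and 96.7 FPKM with phillyrin, against 149, 139 and 143 FPKM in OGD/R. Which copy gave these reads is uncertain, and with the counts of both summed the log2 fold change was -0.31 (adjusted p = 3.62e-09 by edgeR). Eno2, the neuronal form, was at 0.995, 0.874 and 0.813 FPKM with phillyrin, against 1.45, 1.30 and 1.16 FPKM in OGD/R (edgeR log2 fold change -0.54 ± 0.16 SE, adjusted p = 0.0105). Leaving out OGD/R replicate 1 ended this call (adjusted p = 0.0673 by edgeR). Eno3 made up 39.2 ± 1.26% of the enolase FPKM with phillyrin and 45.3 ± 1.25% in OGD/R (SD, n = 3 each). On transcript lengths its share was 21.3 ± 0.895% with phillyrin and 25.8 ± 0.966% in OGD/R.

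The last enzyme, lactate dehydrogenase, was 99.0 ± 0.0468% Ldha by FPKM with phillyrin and 99.2 ± 0.0764% in OGD/R (SD, n = 3 each). Ldha (ENSMUSG00000063229, GRCm39 chromosome 7, 46490899 to 46505051), the form that favours lactate production, stood at 212, 233 and 230 FPKM with phillyrin, against 299, 292 and 292 FPKM in OGD/R. Every phillyrin library lay below every OGD/R library (edgeR log2 fold change -0.39 ± 0.03 SE, adjusted p = 3.04e-11). Ldhb, the form of heart muscle, was scarce, at 2.27, 2.44 and 2.26 FPKM with phillyrin, against 2.45, 2.03 and 2.45 FPKM in OGD/R, with overlapping groups (edgeR log2 fold change 0.02 ± 0.19 SE, adjusted p = 0.948). Lactate transport was mostly Slc16a1, the carrier MCT1, which overlapped at 71.6, 73.1 and 68.4 FPKM with phillyrin and 68.2, 70.8 and 72.6 FPKM in OGD/R (edgeR log2 fold change 0.01 ± 0.04 SE, adjusted p = 0.841). Slc16a3, the carrier MCT4 of glycolytic cells, stood at 5.12, 5.85 and 5.04 FPKM with phillyrin, against 6, 6.42 and 6.02 FPKM in OGD/R (edgeR log2 fold change -0.20 ± 0.07 SE, adjusted p = 0.0397). DESeq2 did not call it (adjusted p = 0.108), and edgeR did not after leaving out phillyrin replicate 1 or 3 (adjusted p = 0.147 and 0.143) or OGD/R replicate 1, 2 or 3 (0.0577, 0.17 and 0.0653). Its locus overlaps Csnk1d on the other strand, and whether reads were assigned by strand is not given in the sources used here.

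**Figure D2:**
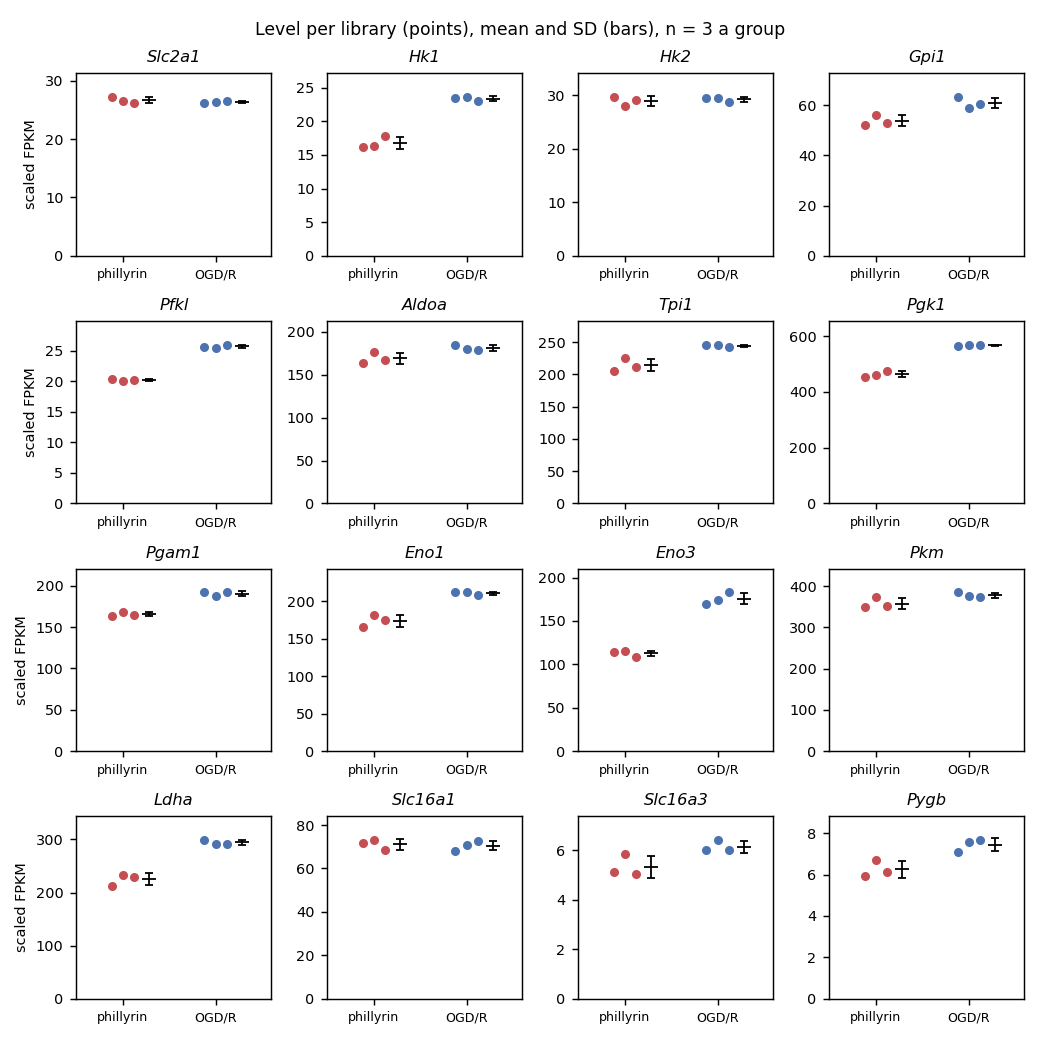
Scaled FPKM of 16 members in each library (points, phillyrin left, OGD/R right) with the group mean and SD (bars, n = 3), each axis starting at 0. Hk1, Pfkl, Pgk1, Eno3 and Ldha separate clearly, while Slc2a1, Hk2 and Slc16a1 lie at the same height in both groups.

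Step by step, from hexokinase to lactate dehydrogenase, 9 of the 11 enzyme steps had at least 1 gene that fell. Of the 19 members at these steps 63.2% fell and 5.26% rose, against 15.6% and 16% of all genes tested. The summed FPKM of a step was lower in every phillyrin library than in every OGD/R library for 10 of the 11, pyruvate kinase being the exception. Of single genes tested, 21.6% lay wholly lower with phillyrin. On the lengths of the table the enolase step had the lowest ratio of means, 0.742, at 288 ± 8.70 FPKM with phillyrin and 388 ± 4.76 FPKM in OGD/R (SD, n = 3 each). Lactate dehydrogenase followed at 0.767 and phosphoglycerate kinase at 0.817. The ratio was 0.869 for hexokinase, 0.842 for phosphofructokinase and 0.931 for aldolase. On transcript lengths the enolase ratio was 0.778 and that of lactate dehydrogenase 0.766, so their order turned, as did that of hexokinase at 0.828 and phosphofructokinase at 0.863. The same number of steps, 10 of the 11, had phillyrin libraries wholly below the OGD/R ones on either length. For import of glucose it was 1.01 and for lactate transport 0.996, with overlapping groups at both.

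**Figure D3:**
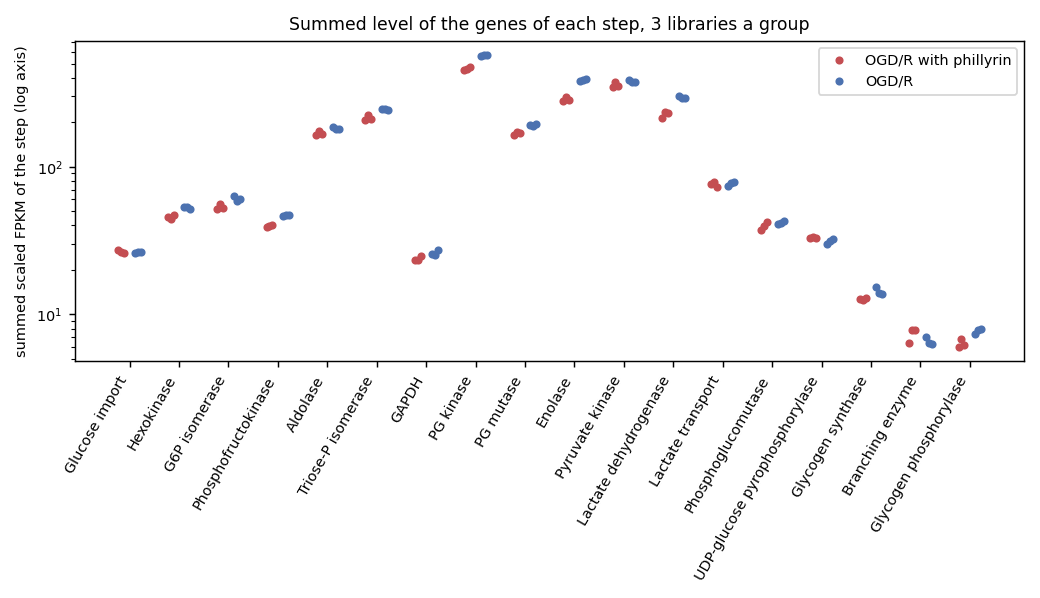
Summed scaled FPKM of the genes of each step (log axis) in the 3 libraries of each group, phillyrin left of OGD/R, steps in pathway order. The phillyrin points lie below at 10 of the 11 enzyme steps from hexokinase to lactate dehydrogenase, and glucose import and lactate transport overlap. Of single genes tested, 21.6% lay wholly lower with phillyrin.

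To ask whether isoenzymes of a step moved unequally, the log2 ratio of their FPKM was taken in each library for 11 pairs. The groups did not overlap for 7 of these, Hk1/Hk2, Pfkp/Pfkl, Aldoc/Aldoa, Eno3/Eno1, Ldha/Ldhb, Slc16a3/Slc16a1 and Pygm/Pygb. Of single genes tested, 43.1% did not overlap in either direction. Aldoc and Pygm were scarce, with 91 and 62 counts over all 6 libraries together. With 3 libraries a group, an exact two-sided permutation test cannot go below 0.1, which each of the 7 reached, and adjusted over the 11 pairs this was 0.157, so none passed. Hk1/Hk2 was at -0.87, -0.78 and -0.71 with phillyrin, against -0.32, -0.33 and -0.32 in OGD/R, a difference of -0.46. Eno3/Eno1 was at -0.53, -0.66 and -0.67 with phillyrin, against -0.32, -0.28 and -0.18 in OGD/R, a difference of -0.36. For both pairs the gap between groups was wider than the spread inside either. Pfkp/Pfkl was higher with phillyrin by 0.31 and Ldha/Ldhb lower by 0.40. Pfkm/Pfkl, with a difference of 0.11, overlapped (exact permutation p = 0.3), as did Pgam2/Pgam1, Eno2/Eno1 and Pgm1/Pgm2. Of the 5 muscle forms tested, 3 fell (Eno3, Pfkm and Gys1) and Pgam2 and Pygm were not called. Gys1 is also the glycogen synthase of most other tissues. Of the 28 other members tested 12 fell and 1 rose. Thus 60% of the muscle forms and 42.9% of the others fell, against 15.6% of all genes tested. The shares that rose were 0% and 3.57%, against 16%.

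**Figure D4:**
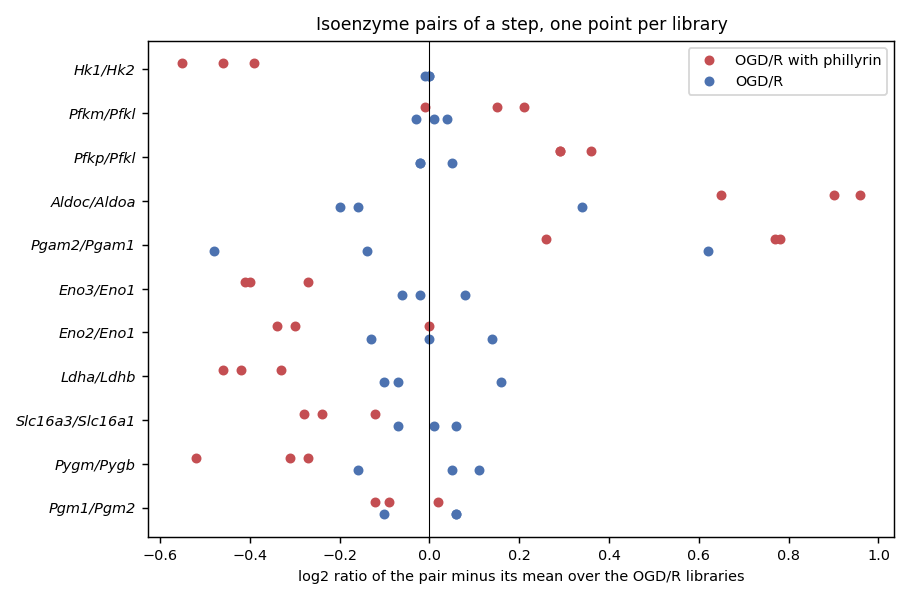
Log2 FPKM ratio of each isoenzyme pair in each library, relative to the mean of the OGD/R libraries (phillyrin drawn above OGD/R in each row). Hk1/Hk2 and Eno3/Eno1 lie to the left of all OGD/R points and Pfkp/Pfkl to the right, while Pgam2/Pgam1 is scattered in both groups.

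Of 8 members in glycogen metabolism, 7 were tested, of which 2 fell and 0 rose. These 2 are 28.6% of those tested, near the 31.7% called among all genes. Gys1, the glycogen synthase of muscle and most tissues, stood at 12.8, 12.6 and 12.9 FPKM with phillyrin, against 15.2, 14 and 13.7 FPKM in OGD/R (edgeR log2 fold change -0.17 ± 0.06 SE, adjusted p = 0.0204). Leaving out phillyrin replicate 2 or OGD/R replicate 1 ended the call (adjusted p = 0.0727 and 0.155 by edgeR), as did DESeq2 (adjusted p = 0.0516), and Ruvbl2 overlaps the locus on the other strand. Pygb, the brain form of glycogen phosphorylase, carried that step at 5.92, 6.69 and 6.13 FPKM with phillyrin, against 7.11, 7.57 and 7.67 FPKM in OGD/R, with groups apart (edgeR log2 fold change -0.25 ± 0.07 SE, adjusted p = 0.00659). Pygm, the muscle phosphorylase lacking in McArdle disease, had 6, 10 and 4 counts with phillyrin and 14, 13 and 15 in OGD/R. Its groups did not overlap, but it missed the threshold (edgeR log2 fold change -0.94 ± 0.47 SE, adjusted p = 0.13). Pygl, the liver form, had 0 counts in every library, which allows up to 0.0269 CPM over the 111513800 counts of all 6.

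On the side of synthesis, Ugp2, which makes the activated glucose donor, stood at 32.9, 33.2 and 32.8 FPKM with phillyrin, against 29.8, 31.5 and 32.4 FPKM in OGD/R. These groups did not overlap, but the gap was small and the gene was not called (edgeR log2 fold change 0.08 ± 0.05 SE, adjusted p = 0.213). Gbe1, the branching enzyme, overlapped at 6.44, 7.86 and 7.79 FPKM with phillyrin and 6.99, 6.38 and 6.27 FPKM in OGD/R (edgeR log2 fold change 0.17 ± 0.07 SE, adjusted p = 0.074). Leaving out phillyrin replicate 1 or OGD/R replicate 1 gave a call as higher (adjusted p = 0.00536 and 0.048 by edgeR). The phosphoglucomutases, which link glycogen to glycolysis, were at 18.1 ± 1.64 FPKM with phillyrin and 19.6 ± 0.259 FPKM in OGD/R for Pgm1, and at 21.6 ± 0.927 FPKM with phillyrin and 22.3 ± 1.33 FPKM in OGD/R for Pgm2 (SD, n = 3 each), and their groups overlapped. Leaving out phillyrin replicate 3, or using unscaled library sizes, gave a call of Pgm1 as lower (adjusted p = 0.0319 and 0.046 by edgeR).

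Of 74 further genes of glucose metabolism around this core 43 were tested, of which 5 rose and 4 fell. That is 20.9% called, against 31.7% of all genes tested. Their median log2 fold change was -0.06. Of 13 tested genes of glycogen handling 4 rose and 0 fell, so that 30.8% were called, near the 31.7% of all genes, of which 16% rose. Stbd1, which tethers glycogen to membranes, stood at 186, 186 and 177 CPM with phillyrin, against 150, 143 and 144 CPM in OGD/R (edgeR log2 fold change 0.33 ± 0.04 SE, adjusted p = 3.32e-08). Gsk3b, the kinase that inhibits glycogen synthase and has many other substrates, stood at 238, 237 and 245 CPM with phillyrin, against 195, 200 and 199 CPM in OGD/R (edgeR log2 fold change 0.28 ± 0.04 SE, adjusted p = 2.36e-07). Both were higher in every phillyrin library. Phka2, a regulatory subunit of phosphorylase kinase (log2 fold change 0.23 ± 0.08 SE), and Pgm2l1, a relative of the phosphoglucomutases (0.29 ± 0.11 SE), also rose (adjusted p = 0.02 and 0.0453 by edgeR). Phka2 missed the threshold with phillyrin replicate 2 or OGD/R replicate 2 left out (adjusted p = 0.19 and 0.0958 by edgeR), on unscaled library sizes (0.0645) and in DESeq2 (0.0516). Pgm2l1 missed it with any library but phillyrin replicate 3 left out (adjusted p between 0.0702 and 0.136 by edgeR), on unscaled library sizes (0.0932), with no low-count filter (0.0576), with the replicate number as a block (0.0543) and in DESeq2 (0.105). Galm, a mutarotase that interconverts the forms of glucose and galactose, was the 1 of 5 other glycolytic enzymes that was called, at 7.43, 6.81 and 7.1 CPM with phillyrin, against 5.08, 4.05 and 4.05 CPM in OGD/R (edgeR log2 fold change 0.69 ± 0.16 SE, adjusted p = 0.000709).

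None of 6 tested carriers and carrier partners was called by edgeR, DESeq2 or limma-voom, among them Bsg, the partner that brings the lactate carriers to the membrane, at 334 ± 14.4 CPM with phillyrin and 347 ± 10.3 CPM in OGD/R (SD, n = 3 each). Among all genes tested edgeR called 31.7%. At an unadjusted p under 0.05 edgeR picked out 2 of the 6, Slc2a8 with a log2 fold change of 0.52 and Slc2a10 with -0.62. Of 14 genes of pyruvate entry into mitochondria 1 fell and 0 rose, so that 7.14% were called, against 31.7% of all genes tested. The 1 that fell was Pdp1, the phosphatase that activates pyruvate dehydrogenase, at 21.6, 23.1 and 20 CPM with phillyrin, against 29.3, 29.3 and 28.8 CPM in OGD/R (edgeR log2 fold change -0.43 ± 0.08 SE, adjusted p = 5e-05). The inhibiting kinases Pdk1, Pdk2, Pdk3 and Pdk4 were not called by edgeR, DESeq2 or limma-voom, nor at an unadjusted edgeR p under 0.05, with log2 fold changes of -0.07, 0.21, -0.17 and -0.11. Gpd2, the mitochondrial glycerol phosphate dehydrogenase that passes glycolytic electrons to the respiratory chain, stood at 138, 146 and 154 CPM with phillyrin, against 190, 181 and 185 CPM in OGD/R (edgeR log2 fold change -0.34 ± 0.04 SE, adjusted p = 3.7e-08). Of the cytosolic glycerol phosphate dehydrogenases, Gpd1 had 25 counts in all and was not tested. Gpd1l also fell (edgeR log2 fold change -0.24 ± 0.09 SE, adjusted p = 0.0379). It missed the threshold with any library but phillyrin replicate 3 left out (adjusted p between 0.0603 and 0.136 by edgeR), with no low-count filter (0.0605) and in DESeq2 (0.11). Of 3 tested gluconeogenic genes G6pc3, the widely expressed glucose phosphatase, fell (edgeR log2 fold change -0.30 ± 0.07 SE, adjusted p = 0.00173). Slc37a4 and Pck2 were not called. Pck2 stood at 211 ± 8.98 CPM with phillyrin and 223 ± 6.03 CPM in OGD/R (SD, n = 3 each, edgeR adjusted p = 0.143), and its groups did not overlap. Fbp1, Fbp2, Pck1 and G6pc of the same list had 0 counts.

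**Figure D5:**
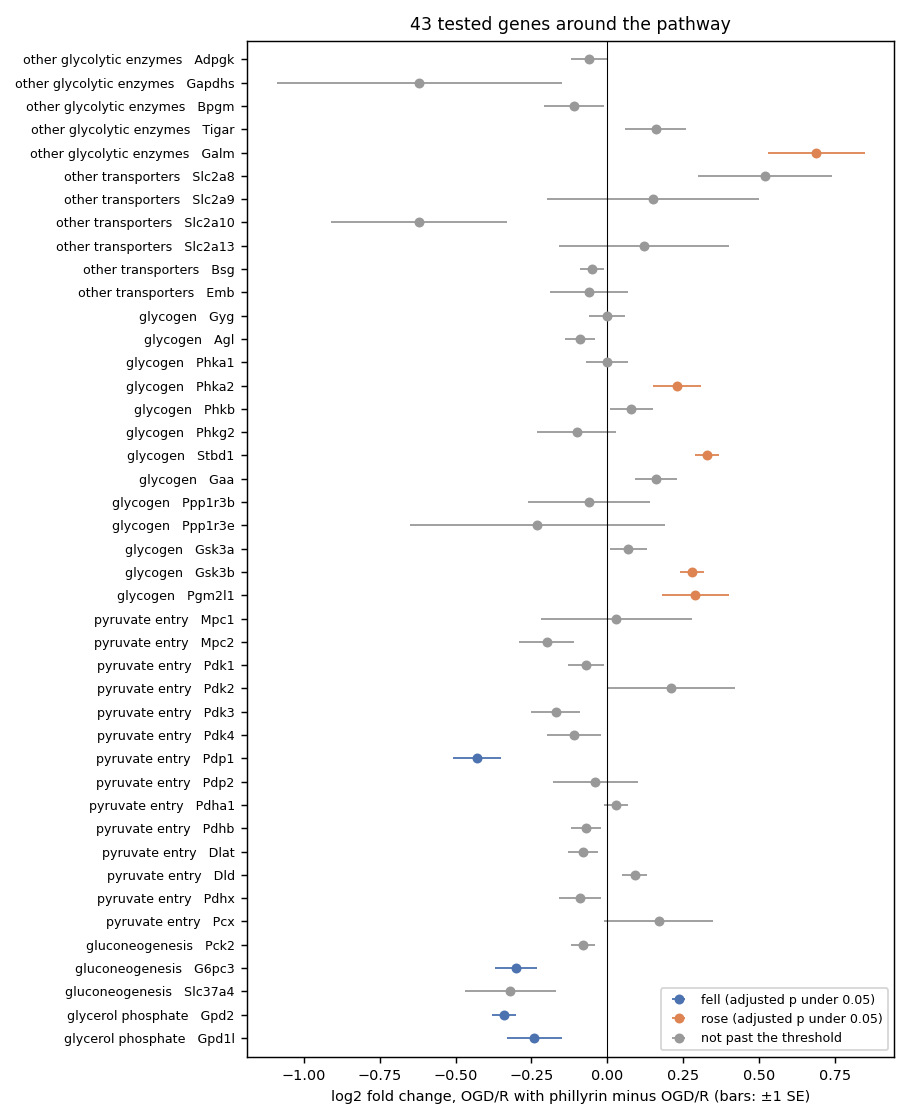
Log2 fold change (x axis, OGD/R with phillyrin minus OGD/R, bars 1 SE) of the 43 tested genes around the pathway, grouped by role. The 5 that rose include 4 glycogen genes, and the 4 that fell are Pdp1, G6pc3, Gpd2 and Gpd1l.

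Reads shared with copies or overlapping genes touch some members. Of the 33 tested members 9 share at least 1 window of 150 bases with the transcript of another gene, led by Gapdh (74%), Pgk1 (66.1%), Eno1 (49%) and Pgam1 (37.9%), and 10 overlap a gene on the other strand. Of the 18 tested members with neither, 6 fell and 1 rose, or 33.3% and 5.56%, against 15.6% and 16% of all genes tested. Their median log2 fold change was -0.03, against -0.14 over all tested members and -0.01 over all genes, and 10 of the 18 were below 0. The phillyrin libraries lay wholly below the OGD/R libraries for 7, against 21.6% of all genes, and wholly above for 2, against 21.5%. The 6 that fell are Eno3, Ldha, Gpi1, Pfkl, Eno2 and Pygb. Hk1 shared 0.194% of its windows.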

How the data were processed

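Poly(A)-selected RNA of 6 libraries was sequenced as 150-base read pairs, per the labels. GRCm39 is the build, and HISAT2 2.2.1, featureCounts 2.0.3, Trimmomatic 0.39 and DESeq2 1.34.0 are the tools, that the submitters' processing notes name, without a role or setting. For each gene in each library the authors deposited the count of reads and the FPKM, per the file headers. The deposited FPKM equalled the count divided by length and by the library's total of counts, in kilobases and at a fixed scale, to within a relative difference of 2.43e-07. Counts were filtered (filterByExpr), scaled with TMM factors and tested with edgeR 4.0.16 (quasi-likelihood, robust; R 4.3.3). P-values were adjusted by Benjamini-Hochberg over 11658 genes, with a threshold of 0.05. The SE is the size of the log2 fold change divided by the square root of the F statistic. CPM and FPKM here use TMM-scaled library sizes, and isoenzyme ratios a prior of 0.1 FPKM. Of 13 planned pairs, 2 with an untested member (Slc2a3/Slc2a1 and Pygl/Pygb) were left out. Whether replicates were separate cultures is not stated, so the spread that the p-values measure may be technical. A limit for 0 counts is 3 counts. It covers counting error alone, as PCR copies of a read are not independent molecules.

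The members and gene lists were chosen with earlier results of these data known. Values in every library are given for called members and the most abundant member of a step, and called genes of the other lists are named. The name G6pc in the table was matched to G6pc1 on the list by its description, and Gyg to Gyg1 by a RefSeq synonym. Promoter windows and transcripts (RefSeq GRCm38.p6, GENCODE M21) were matched by symbol and gene identifier, and 34 members had a promoter window. For genes with several annotated starts the window with the most coding transcript starts within 50 bases was used, and 4 members without a single such window were left out. A gene with 1 window kept it, even with 0 such starts nearby, as for Tpi1, Pgam1, Pgam2 and Pygb. On counts simulated for 11658 genes in this comparison, 67, 66 and 67 genes were changed by 1.25-fold, 1.5-fold and 2-fold. The test recovered 68.7%, 86.4% and 88.1% of them, with 10 false among 172 calls. Far fewer genes were changed there than the 31.7% called in the data, so these rates need not hold here. The alternatives were limma-voom (limma 3.58.1), DESeq2 1.42.0, RLE factors, unscaled library sizes, a filter at a mean of 1 CPM, no filter, each library left out, the replicate number as a block and a test against a fold of 1.2. Summing Eno1 with Eno1b and using transcript lengths for shares and step sums were added after the data were seen.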

Additional observations from a re-analysis of the deposited data

How the results depend on the processing

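Of the 15 members that fell, 10 (Hk1, Gpi1, Pfkl, Tpi1, Pgk1, Pgam1, Eno1, Eno3, Ldha and Pygb) kept the call in all 13 alternatives other than the fold test, and no called member changed sign in any. With each library left out the number that fell was between 11 and 16 and the number that rose between 0 and 1. Among all genes between 1412 and 1668 fell in these fits and between 1434 and 1899 rose. With DESeq2, without a low-count filter and with a minimum mean of 1 CPM 0 members rose, Aldoc being tested and not called or not tested. Against a fold of 1.2, 3 members fell and 0 rose, among all genes 303 fell and 233 rose, and among the 74 other genes 0 fell and 1 rose. Scaled by library size only, 18 members and 8 of the other genes fell and 3 of the other genes rose, while the median of all genes was -0.06 in place of -0.01. Among all genes 2455 fell and 1313 rose in that setting, against 1823 and 1871 with TMM factors. With DESeq2 3 of the other genes rose, and with each library left out between 3 and 7 did. The Pygm/Pygb difference of -0.37 became 0.08 with a prior of 1 FPKM, which exceeds the level of Pygm itself. Libraries with the same replicate number did not deviate together (correlations of 0.00, 0.01 and 0.00), so the numbers are not taken as pairs. With the replicate block 15 members fell and 1 rose, and Pgm2l1 was no longer called. Depth limits what can be said of Aldoc, Pygm and the genes below the count filter.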
